A study of Drosophila melanogaster with 12 samples.

Results

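Genes for the proteins of the cytosolic ribosome were followed through 12 oligonucleotide arrays of fly heads. They were chosen by name, as every probe set assigned to 1 gene whose symbol is RpL, RpS or RpLP followed by a number. No intensity entered this rule, and mitochondrial ribosomal proteins, whose symbols begin with m, stay out by it. The family itself was chosen with earlier results of these data known. The rule found 47 probe sets of 41 genes, among 18952 probe sets and 11982 genes named by 1 symbol. The RefSeq gene table lists 93 protein-coding genes of this form; those without such a probe set, RpS3, RpS6, RpL22 and sta among them, were not analysed here. Another 3 probe sets name a member together with other genes and were not used.

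Total RNA came from whole heads of Drosophila melanogaster. The flies had been conditioned by a behavioural stimulus or were their non-conditioned counterparts, and each of these was sampled at 0 h and at 24 h. Every group of 3 arrays carries the word OR, which is not expanded. Neither the kind of conditioning, an allele, the sex, the age nor the number of flies behind an array is stated. The labels call 2 arrays of conditioned heads at 0 h and 1 at 24 h biological duplicates. For the rest nothing of the kind is said, so a p-value here covers the spread among these arrays alone, which may be technical.

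A ribosome joins a small subunit, which reads the messenger RNA, to a large subunit, which forms the peptide bond, and a stalk of acidic proteins on the large subunit recruits the elongation factors. The proteins are made in nearly equal amounts, and flies with a single working copy of many of these genes develop slowly and have short, thin bristles, the Minute phenotype. In animals the TOR pathway controls how well ribosomal protein messenger RNAs are translated, so their abundance alone does not give the rate of synthesis.

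All arrays had been scaled before deposit to a trimmed mean intensity of 150. Photoreceptor (trp, Arr1, Arr2), neuron (elav, nSyb) and glia markers (repo, nrv2, moody) had intensities of 297 or more on every array, the 4 probe sets of the neuronal gene brp read 5.2 to 93.4, and the markers of either germline stayed at or below 17.2. The summed intensity of the 3 yolk protein genes was 199 to 260 on the 6 non-conditioned arrays. In conditioned heads it was 8629 on 1 array at 0 h, and 12468 and 17710 on 2 arrays at 24 h, against 199 to 277 on the other 3. The sum over 5 accessory gland genes was 633 on replicate 3 of the non-conditioned heads at 0 h and at most 32 elsewhere. The fits of group differences to the values as deposited were also run without the 3 yolk-positive arrays. Counts of groups without overlap, confidence intervals, array medians and quantile-normalized values below were computed with those arrays included only.

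Of the 47 probe sets, 32 probe sets of 31 genes had mean intensities between 1166 and 6836, and the limit of 1000 that separates them from the rest was set after their values were seen. They comprise 16 probe sets of the large subunit, 12 of the small subunit, the 3 stalk proteins RpLP0, RpLP1 and RpLP2, and RpL24-like. Probe sets differ in how they bind, so an intensity is read against the same probe set on other arrays, and the split into bright and dim probe sets says nothing of transcript amounts. The ubiquitin fusions RpL40 and RpS27A, which release a ribosomal protein from a ubiquitin precursor, had intensities of 3602 to 4847 and 4919 to 6869. RpL32, also known as rp49 and widely used as a reference gene in fly work, ranged from 3844 to 5084.

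**Figure D1:**
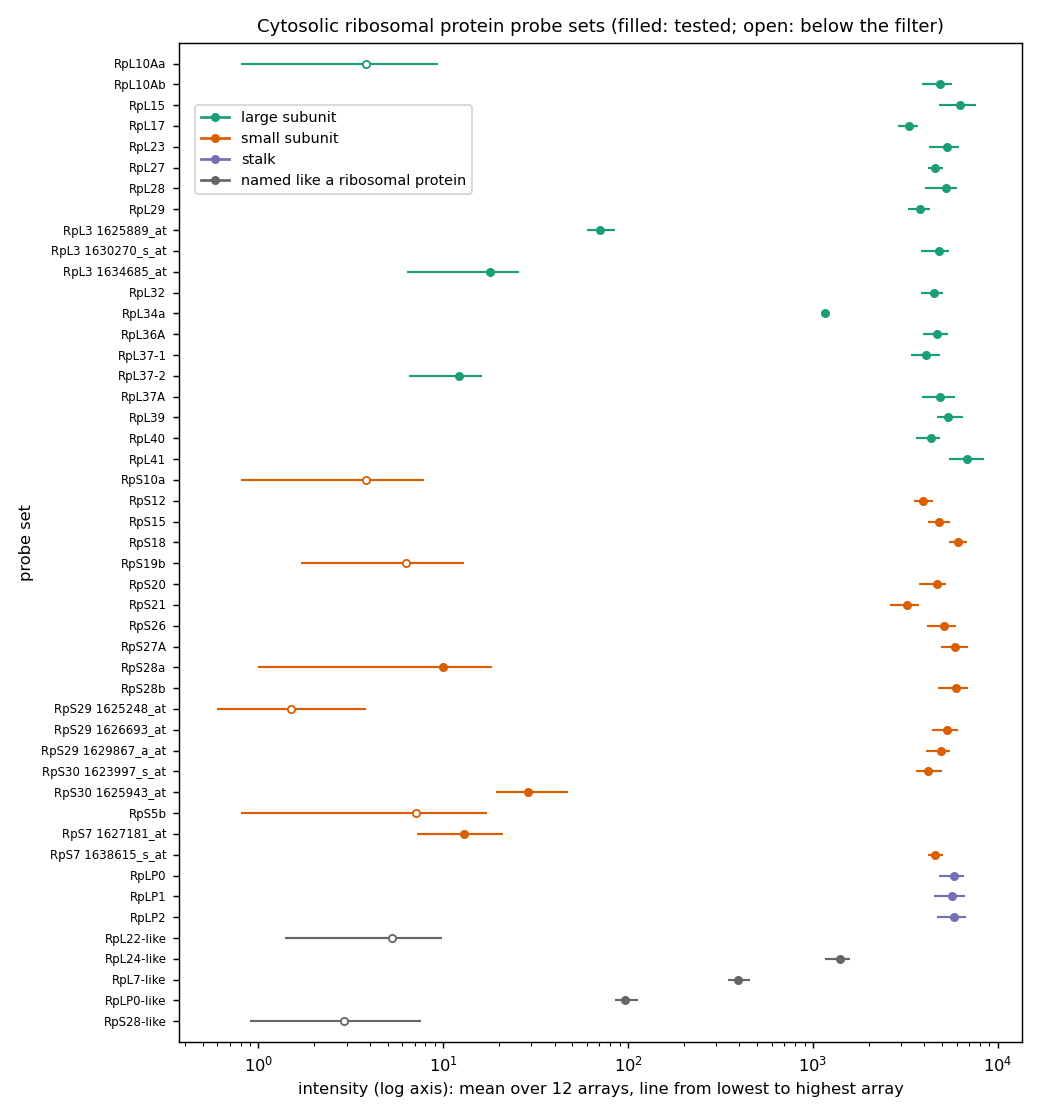
Intensity of the 47 probe sets on a log axis. Points are means over 12 arrays and lines run from the lowest to the highest array; colours give the subunit and open points the 7 probe sets below the filter on low values. The 32 bright probe sets lie above 1000, and RpL34a, from 1109 to 1226, has the shortest line among them.

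The remaining 15 probe sets were dim. They include the second copy of several duplicated genes: RpL10Aa had a mean of 3.8, RpS28a of 10.03 and RpL37-2 of 12.2, each on its own probe set. RpS5b and RpS19b, known from the germline, and RpL22-like, known from the male germline, had means of 7.1, 6.3 and 5.3. A dim probe set can also be a poor one, as 4 genes with several probe sets show. RpL3, whose extensions reach towards the peptidyl transferase centre, had means of 4793, 70.7 and 17.9 on its 3 probe sets, and RpS29 had 5287, 4909 and 1.5. A low reading of a second copy therefore sets no bound on its transcript.

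Of the 47 probe sets, 40 passed the filter on low values, which kept the upper 60% of all probe sets by mean on a log2 scale. The 7 below it were those of RpL10Aa, RpL22-like, RpS10a, RpS19b, RpS28-like and RpS5b and the dimmest of RpS29, with means from 1.5 to 7.1. The following results are about the 40. Each was fitted with limma together with all 11261 probe sets tested, and a call needs a Benjamini-Hochberg adjusted p under 0.05 over all of these.

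The bright members moved together from array to array. For each array, the median over the 32 bright members of the log2 intensity minus the probe set's own mean was taken. In non-conditioned heads at 24 h this median was -0.26 on replicate 1, 0.16 on replicate 2 and 0.003 on replicate 3. In non-conditioned heads at 0 h it was 0.051, 0.065 and 0.18, and in conditioned heads -0.043, -0.009 and 0.055 at 0 h and -0.15, -0.006 and -0.045 at 24 h. These array medians span -0.26 to 0.18, while their group means lay between -0.067 and 0.099. Replicates 1 and 2 of the non-conditioned 24 h group lie at the low end and near the high end of the series. On replicate 1 only 1 of 32 members stood above its own mean, and on replicate 2 all 32 did.

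Most members took part. The lowest array was replicate 1 of the non-conditioned 24 h group for 29 of the 32, and the highest was replicate 3 of the non-conditioned 0 h group for 20 and replicate 2 of the non-conditioned 24 h group for 8. RpL15 spanned the widest range, with a highest intensity 1.6 times the lowest. The median ratio was 1.38, and RpL34a had the narrowest at 1.11. Large and small subunit genes moved alike, with medians of -0.27 and -0.23 on the lowest array and 0.19 and 0.17 on the highest.

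Other bright transcripts leaned the same way on the same arrays. Among the 1095 brightest probe sets that are no members, the median was -0.081 on replicate 1 and 0.046 on replicate 2 of the non-conditioned 24 h group, and 0.062 on replicate 3 of the non-conditioned 0 h group. These medians are smaller than the members', but the set is not matched in brightness. It reaches down to a mean of 834.5, while bright members other than RpL24-like and RpL34a had means of 3238 or more. A high percentile of each array's intensities was 3136 on the array where the members were lowest and 4074 where they were highest. Whether the members shifted more than equally bright transcripts was not tested. Over all probe sets tested the array medians stayed between -0.008 and 0.014. The highest intensity of any probe set was 6961 on the array where the members were lowest and 12535 on the array where they were highest. The 3′ probe set for 18S ribosomal RNA gave 52.8 on that lowest array and 223.9 to 661.8 on the other 11, and the part of either in the members' shift was not tested.

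After quantile normalization, which gives every array the same set of intensities, the shared movement was small. The bright members' array medians then lay between -0.022 and 0.016. Their median standard deviation within groups was 0.125 as deposited and 0.036 after it, and it was smaller for 30 of 32. The bright members lie near the top of the intensities, which this method makes equal on all arrays. It can remove a real change shared by the family too, so medians near 0 after it do not show that levels were equal. Directions of the family as a whole are therefore given below under both scalings.

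**Figure D2:**
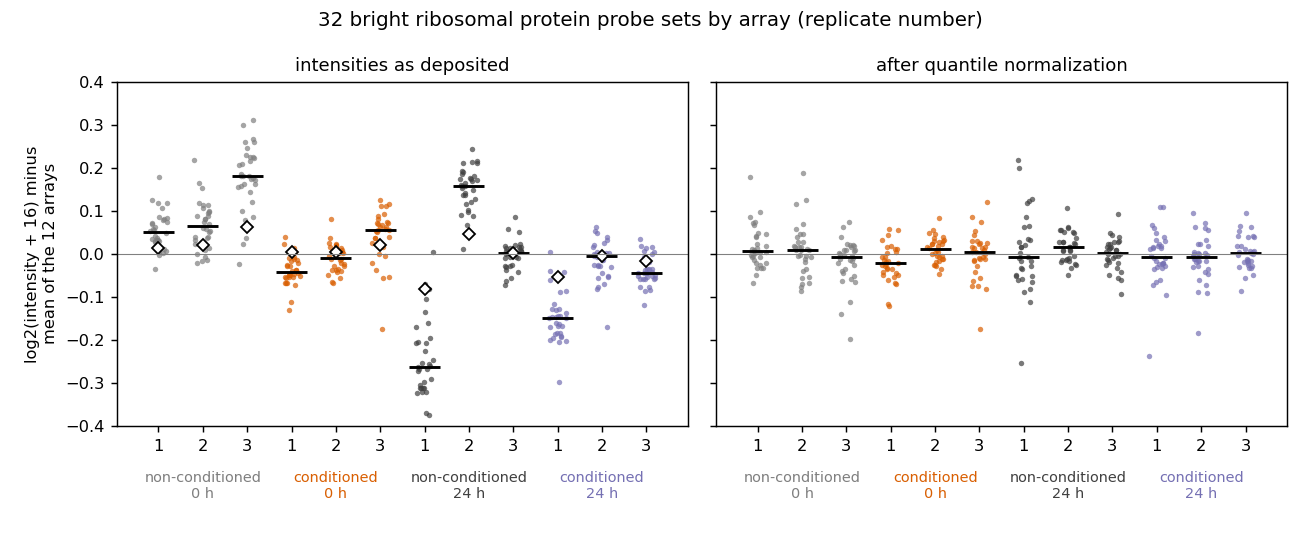
Log2(intensity + 16) minus the probe set's mean over the 12 arrays, for the 32 bright members on each array, with the replicate number on the horizontal axis. Black bars are medians over the members and open diamonds the medians of the 1095 brightest probe sets that are no members. As deposited, the bars run from -0.26 to 0.18; after quantile normalization they lie between -0.022 and 0.016.

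Conditioning left no ribosomal protein gene past the threshold at 0 h. With limma, 0 of 40 probe sets had an adjusted p under 0.05, against 0.577% of all probe sets, and 3 of 40 had an unadjusted p under 0.05, against 12.2%. The median log2 difference, conditioned minus non-conditioned, was -0.088 over the members and 0.01 over all probe sets. Of the members 33 of 40 lay below 0, against 47.0% of all probe sets, but after quantile normalization the members' median was 0.013 and 19 were below 0. The bright large subunit probe sets had a median of -0.11 and the small subunit ones of -0.093. In these bulk samples, fewer cells of a type and less RNA per cell cannot be told apart.

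All 12 members whose conditioned arrays lay wholly below the non-conditioned ones at 0 h were bright, and 1 dim probe set lay wholly above. Among all probe sets these shares were 7.71% and 9.84%. The 12 probe sets were 5 of the large subunit (RpL17, RpL29, RpL34a, RpL36A, RpL37-1) and 7 of the small subunit (RpS12, RpS20, RpS21, RpS26, RpS30 and both bright ones of RpS29). Their differences ran from -0.25 to -0.082, and all of them had an adjusted p of 0.199 or more with limma. The overlap was judged on the values as deposited only. Quantile normalization put the 12 differences between -0.17 for RpS21 and 0.013 for RpS20. Those of RpS26 and of both RpS29 probe sets were then -0.008, -0.004 and -0.003. Because the members shift together from array to array, these 12 are not 12 separate observations.

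RpS21 had the lowest p. It is a small subunit protein whose loss in fly larvae leads to overgrown blood-forming organs. At 0 h its intensities were 3496, 3750.2 and 3592 without and 3112, 3158 and 2852 with conditioning, and the groups did not overlap. The log2 difference was -0.25 ± 0.081 (SE, n = 3 arrays per group; adjusted p = 0.199 with limma), and it was -0.17 after quantile normalization. At 24 h the values were 3228, 3622 and 3336 without and 2615, 2861 and 3232 with conditioning, so that the highest conditioned array overlapped the non-conditioned ones. The difference was -0.23 ± 0.081 (SE; limma, adjusted p = 0.999) and was -0.23 under quantile normalization as well. Neither difference passed the threshold. Over the 24 alternatives they ran from -0.28 to -0.17 at 0 h and from -0.33 to -0.053 at 24 h.

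When the 2 groups at 0 h were fitted alone, RpS21 was the 1 member to pass (limma, adjusted p = 0.0476). Over all 24 alternatives its adjusted p at 0 h ran from 0.0476 to 0.584. The 3 lowest RpS21 readings among the conditioned arrays, 2852 at 0 h and 2615 and 2861 at 24 h, are those of the 3 arrays with yolk protein transcripts. Without these arrays the difference was -0.21 at 0 h (limma, adjusted p = 0.539) and -0.053 at 24 h (adjusted p = 1.0), the latter with 1 conditioned array left, which is assumed to vary like the other groups.

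RpL29, a large subunit protein found in eukaryotes alone, had intensities of 3893, 4205 and 4292 in non-conditioned and 3654, 3635 and 3687 in conditioned heads at 0 h. These groups did not overlap, with a log2 difference of -0.17 ± 0.074 (SE; limma, adjusted p = 0.356). The bright probe set of RpS30, which is made as a fusion to a ubiquitin-like protein, followed with -0.17. RpS12, known in flies for its part in cell competition, followed with -0.15. The dim probe set of RpS30, with a mean of 28.7, differed by 0.124, and by 0.127 after quantile normalization. RpL32 gave 4600.3, 4777 and 5084 without and 4349, 4425 and 4612 with conditioning, a difference of -0.11 ± 0.086 in which the groups overlapped. The stalk proteins RpLP0, RpLP1 and RpLP2 had differences of -0.034, -0.083 and -0.094, none of them past the threshold. After quantile normalization RpL29, RpS12, RpL32 and the bright probe set of RpS30 stood at -0.11, -0.064, -0.018 and -0.077. RpLP0 and RpLP1 then stood at 0.076 and 0.013, and RpLP2 at 0.0.

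**Figure D3:**
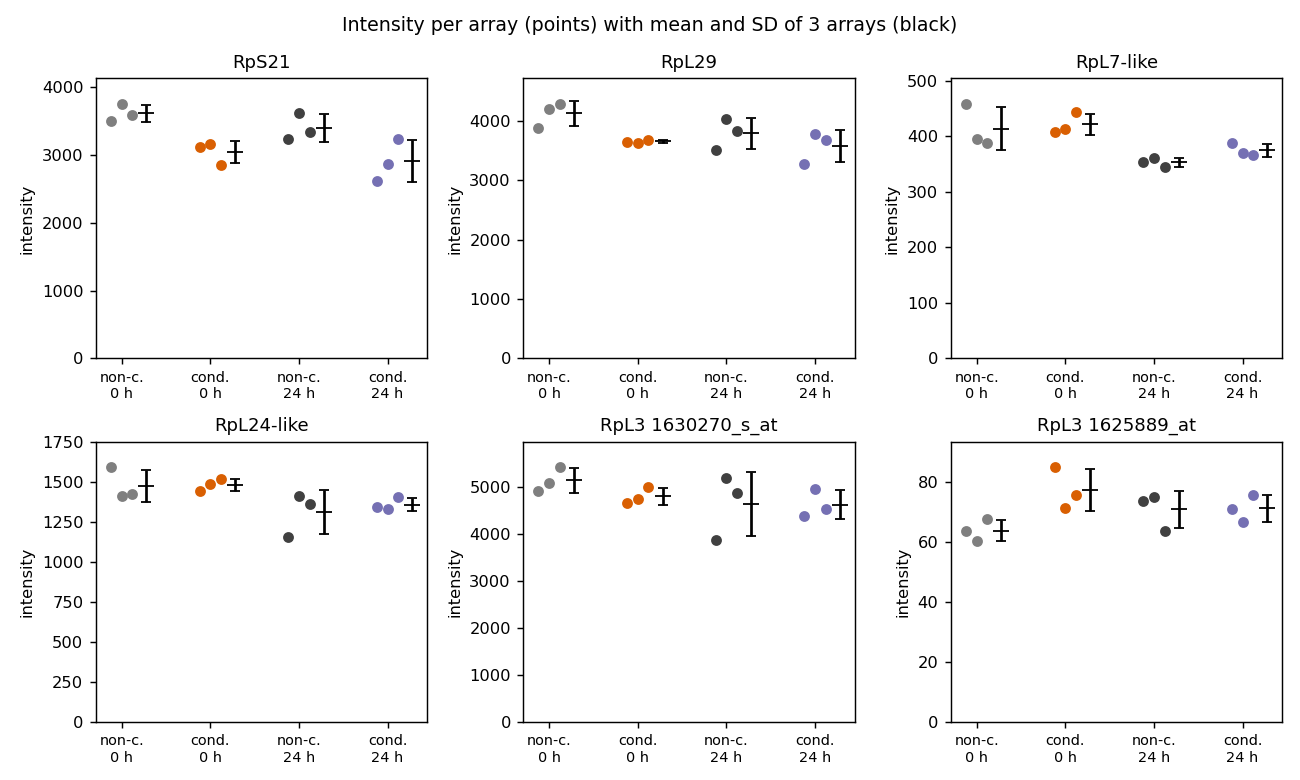
Intensities of 6 probe sets on each array (coloured points) with the mean and SD of the 3 arrays of a group (black). Conditioned arrays lie below non-conditioned ones at 0 h for RpS21 and RpL29, and 24 h arrays below 0 h ones in both arms for RpL7-like; axes start at 0.

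At 24 h after conditioning no member passed either. With limma, 0 of 40 were called, against 0.0% of all probe sets, and 1 had an unadjusted p under 0.05, RpS21, against 4.33%. The median difference was -0.026 over the members and 0.0 over all probe sets, with 26 of 40 below 0 against 50.0% of all, and it was -0.005 after quantile normalization. No member lay wholly below and 1, RpL7-like, wholly above its non-conditioned group, against 5.16% and 5.31% of all probe sets. This median rests on single arrays: it was -0.13 without replicate 1 and 0.09 without replicate 2 of the non-conditioned group. After RpS21, the lowest p belonged to RpL27, a large subunit protein, with a difference of -0.13 ± 0.077 (SE; limma, adjusted p = 0.999).

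The size that the data allow can be bounded for the intensities as deposited. Such a bound is not one on transcript amounts, and it rests on a spread among arrays that may be technical. For each of the 32 bright members, the 95% confidence interval of the log2 difference lay within a 1.5-fold change in both directions, in all 5 comparisons. The outermost limits for these members were -0.42 and 0.165 at 0 h and -0.40 and 0.24 at 24 h. The same held for 38 of all 40 members at 0 h and 39 at 24 h. Intervals of this width leave room for changes of about the size measured for RpS21, and missing the threshold does not show that levels were equal.

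Between 0 h and 24 h in non-conditioned heads, the number of calls over all probe sets was higher, but again no member was among them. With limma 0 of 40 were called, against 5.22% of all probe sets, and 5 had an unadjusted p under 0.05, against 17.9%. The median log2 difference, 24 h minus 0 h, was -0.13 over the members and -0.0 over all probe sets. Of the 40 members, 35 lay below 0, against 50.1% of all probe sets, but after quantile normalization the median was 0.004 and 18 lay below 0. In 1 member, RpL7-like, the 24 h arrays lay wholly below the 0 h arrays, against 9.19% of all probe sets, and in none wholly above, against 9.97%. The stalk proteins differed by -0.11 to -0.16, and RpL15, a large subunit protein, by -0.22 ± 0.11 (SE; limma, adjusted p = 0.321). After quantile normalization RpLP0, RpLP1 and RpLP2 stood at 0.044, 0.005 and 0.03, and RpL15 at -0.067.

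RpL15 is given here array by array. Its intensities were 6436, 6397 and 7662 at 0 h and 4796, 6899.9 and 6065 at 24 h, so that 1 array at 24 h stood far below and another above most of the 0 h arrays. Without replicate 2 of the non-conditioned 24 h group, the high one, 19 members passed, all of them lower at 24 h. They were 10 of the large subunit, 7 of the small subunit and the stalk proteins RpLP1 and RpLP2, with differences from -0.36 to -0.24 and adjusted p from 0.0103 to 0.0481 with limma, against 3.29% of all probe sets called lower in that fit. Without replicate 1, the low one, no member passed and the median was -0.029. The count of 0 and the count of 19 thus differ by a single array.

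In conditioned heads, too, no member passed between 0 h and 24 h. With limma 0 of 40 were called, against 4.67% of all probe sets, and 1 had an unadjusted p under 0.05, against 18.2%. The median difference was -0.063 over the members and -0.01 over all probe sets, with 35 of 40 below 0 against 53.1% of all, while after quantile normalization it was 0.004 with 20 below 0. In 8 members the 24 h arrays lay wholly below the 0 h arrays, against 14.9% of all probe sets, and in none wholly above, against 13.2%. These were RpL10Ab, of the flexible stalk where spent transfer RNA leaves, RpL15, RpL23, RpL27, RpL37A, RpS27A, RpL7-like and RpL24-like. As deposited they differed by -0.16 to -0.079, with adjusted p of 0.177 or more with limma. Quantile normalization put these differences between -0.17 for RpL7-like and -0.004 for RpL27.

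The summed markers of some tissues differed between the times, while those of others overlapped. The summed intensity of 4 muscle genes was 1969 to 2282 on the 0 h arrays and 1567 to 1721 on the 24 h arrays, with no overlap, and that of 5 fat body genes 10308 to 12388 and 11200 to 15912. Within conditioned heads alone the fat body sums did not overlap, with 10308 to 10700 at 0 h and 12639 to 14769 at 24 h. The sum over 3 neuron genes was 1616 to 1809 at 0 h and 1560 to 1607 at 24 h in conditioned heads, without overlap. In non-conditioned heads the neuron sums, 1564 to 1670 and 1538 to 1570, overlapped, as did those of fat body. The glia sums, 3091 to 3293 on the 0 h arrays and 3123 to 3359 on the 24 h arrays, overlapped. So did the photoreceptor sums, with 19944 to 26416 and 16255 to 23173. The part of these tissues in the members' values was not tested.

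The difference between the conditioning effects at 24 h and at 0 h was fitted as an interaction. With limma 0 of 40 members were called, against 0.0% of all probe sets, and 1 had an unadjusted p under 0.05, against 7.19%. That one was the dimmest probe set of RpL3, with 6.4 to 25.8 on the 12 arrays, at -0.49 ± 0.23 (SE; adjusted p = 0.683). The median was 0.06 over the members and -0.009 over all, with 36 of 40 above 0 against 47.8% of all, and 0.004 after quantile normalization. It changed sign when single arrays were left out, from -0.033 without replicate 1 to 0.169 without replicate 2 of the non-conditioned 24 h group.

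**Figure D4:**
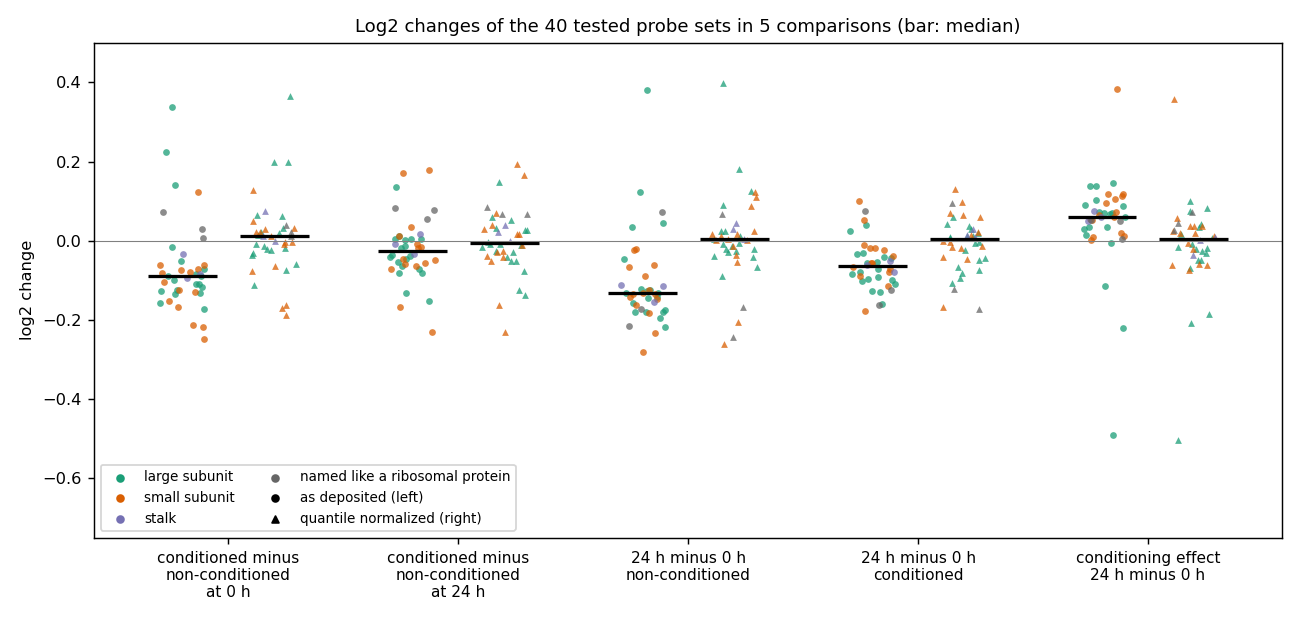
Log2 differences of the 40 tested probe sets in the 5 comparisons, as deposited (circles) and after quantile normalization (triangles), coloured by subunit, with bars at the medians. As deposited the first 4 medians lie between -0.13 and -0.026 and the fifth at 0.06, and after quantile normalization all 5 lie between -0.005 and 0.013.

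RpL7-like, RpL24-like and RpLP0-like carry ribosomal protein names but are homologs of yeast factors (Rlp7, Rlp24 and Mrt4) that sit on the immature large subunit. RpL7-like came nearest to the threshold of all members. In non-conditioned heads it read 459, 396 and 388 at 0 h and 354, 360.4 and 346 at 24 h. In conditioned heads the values were 407, 414 and 444 at 0 h and 388, 369.5 and 367 at 24 h. In both arms every 24 h array was below every 0 h array of that arm.

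The log2 difference of RpL7-like was -0.22 ± 0.064 in non-conditioned (SE; limma, adjusted p = 0.0626) and -0.16 ± 0.064 in conditioned heads (adjusted p = 0.177). Under quantile normalization it was -0.24 (limma, adjusted p = 0.0354) and -0.17. In non-conditioned heads it passed in 5 of 24 alternatives, with adjusted p from 0.0354 to 0.254, and it was -0.14 without replicate 1 of the 0 h group. In conditioned heads it was -0.10 without replicate 3 of the 0 h group and -0.067 without the 3 yolk-positive arrays (limma, adjusted p = 0.574 and 0.973). The difference between the arms, tested as the interaction, was 0.053 ± 0.09 (adjusted p = 0.951), so the arms were not shown to differ.

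RpL24-like read 1592, 1412 and 1427 at 0 h and 1159, 1414 and 1364 at 24 h in non-conditioned heads, where the groups overlapped by 1 array. In conditioned heads it read 1442, 1487 and 1517 at 0 h and 1345, 1330 and 1404 at 24 h, without overlap. Its differences were -0.17 ± 0.072 and -0.12 ± 0.072 (SE; limma, adjusted p = 0.211 and 0.4), and -0.17 and -0.12 after quantile normalization. The former was -0.086 without replicate 1 of the 24 h group and -0.11 without replicate 1 of the 0 h group. RpLP0-like differed by 0.072 and 0.076, with both pairs of groups overlapping. Of these 3 homologs, none passed the threshold in the fit to the values as deposited.

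RpL27, RpS7 and RpL34a were singled out after their values over time were seen. RpL27 read 4439, 4928 and 4480.4 at 0 h and 4303, 5079 and 4831 at 24 h in non-conditioned heads, a difference of 0.036 ± 0.077, where 31 of 32 bright members were below 0 as deposited and 14 after quantile normalization. Under the latter it stood at 0.18 (limma, adjusted p = 0.0724). In conditioned heads it read 4464, 4671 and 4549 at 0 h and 4427, 4337 and 4188 at 24 h without overlap, a difference of -0.079 ± 0.077, and -0.004 after quantile normalization. The bright probe set of RpS7 differed by -0.02 in non-conditioned and 0.052 in conditioned heads as deposited, and by 0.11 and 0.13 after quantile normalization (limma, adjusted p = 0.157 and 0.0884). Its dim probe set, with 7.2 to 21.1 on the 12 arrays, differed by -0.28 and 0.10. RpL34a had differences between -0.088 and 0.025 in the 4 comparisons of groups.

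The probe sets of RpL3 did not move alike as deposited. At 0 h the probe set with a mean of 70.7 read 63.5, 60.1 and 67.4 without and 84.8, 71.3 and 75.4 with conditioning, a difference of 0.22 ± 0.094 without overlap (SE; limma, adjusted p = 0.343). The bright one differed by -0.098 ± 0.095 with overlap. The dimmest, with a mean of 17.9, differed by 0.338 ± 0.162 with overlap (SE, adjusted p = 0.423 with limma). Quantile normalization put the probe set with a mean of 70.7 at 0.199, the bright one at 0.014 and the dimmest at 0.366. Which transcripts the 3 probe sets match was not analysed here.

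Other genes of translation and growth were called at shares that can be set beside the 5.22% of all probe sets called over time in non-conditioned and the 4.67% in conditioned heads. Those shares count calls in either direction. Among 35 probe sets of initiation factors, 3 were called lower at 24 h than at 0 h in non-conditioned heads and 2 in conditioned heads. None was called higher, and those called lower encode subunits of eIF3, the complex that holds the small subunit for initiation. eIF3a fell by 0.25 ± 0.055 and by 0.24 ± 0.055 on the log2 scale (SE; limma, adjusted p = 0.0142 and 0.0193). In non-conditioned heads eIF3d1 fell by 0.24 and eIF3l by 0.31, and in conditioned heads eIF3g1 fell by 0.20. The lists' medians were -0.07 and -0.085, near -0.049 and -0.09 after quantile normalization.

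Of 27 probe sets for ribosome biogenesis, Non1, a nucleolar GTP-binding protein of large subunit assembly, fell in both arms. Its mean intensity went from 1919 ± 43.4 to 1518 ± 83.4 in non-conditioned and from 1865 ± 49.3 to 1467 ± 36.2 (SD, n = 3) in conditioned heads. The log2 differences were -0.34 ± 0.057 and -0.34 ± 0.057 (SE; limma, adjusted p = 0.00183 and 0.00212). In non-conditioned heads its call held under all 24 alternatives. In conditioned heads its difference lay between -0.36 and -0.30 in all 24; its adjusted p was 0.07 with the # arrays alone, the 8 whose titles hold that sign, and 0.721 without the yolk-positive arrays, where 0.16% of all probe sets were called. Nopp140, a nucleolar chaperone of small nucleolar RNPs, rose by 0.36 ± 0.076 in non-conditioned heads (limma, adjusted p = 0.0089); its interaction was -0.34 ± 0.11 (adjusted p = 0.423).

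Of 8 elongation and termination factors, eEF1delta, which recharges the factor that delivers aminoacyl-tRNA, rose by 0.36 ± 0.065 and eRF3, a termination factor, by 0.25 ± 0.06 between the times in non-conditioned heads (SE; limma, adjusted p = 0.00281 and 0.0198). Of 71 mitochondrial ribosomal protein probe sets, mRpS35 and mRpL54 fell in non-conditioned and mRpL42 in conditioned heads, by 0.30 to 0.34, and none was called higher. These are smaller shares than the 5.22% and 4.67% of all probe sets called in either direction. Of 30 probe sets for growth control, 3 passed in conditioned heads over time, against 4.67% of all probe sets. Lk6, the kinase of the cap-binding protein, fell by 0.31 ± 0.058 (limma, adjusted p = 0.00516), while scyl, an inhibitor of TOR, rose by 0.21 ± 0.05 and REPTOR, a transcription factor that TOR keeps inactive, by 0.34 ± 0.088 (adjusted p = 0.0259 and 0.0338). All 3 calls were lost with the # arrays alone and without the yolk-positive arrays, where the differences were -0.19, 0.28 and 0.27 (limma, adjusted p from 0.638 to 0.912). No probe set of these 5 lists passed in the conditioning comparisons or the interaction; the ribosome biogenesis list had a median of 0.138 at 0 h, and 0.112 after quantile normalization, with 0 called. Calls other than that of Non1 in non-conditioned heads were each lost under 1 to 16 of the 24 alternatives.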

How the data were processed

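The deposited table holds 1 linear intensity per probe set and array. Which program, background correction and genome build the authors used is not given in the sources used here. On every array the deposited intensities had a 2%-trimmed mean of 150, with array medians of 19.9 to 21.8. No column was left without a sample. Names came from the platform annotation, updated through RefSeq (13544 of 13647 probe sets with 1 symbol). After removal of 183 control probe sets, the upper 60% by mean of log2(intensity + 16) were tested, 11261 probe sets above a mean of 8.05; the offset understates changes of dim probe sets.

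limma 3.58.1 in R 4.3.3 fitted 4 group means and a term for the 2 forms of sample title (8 arrays with a #, 4 without) on all 12 arrays, with eBayes and a mean-variance trend, leaving 7 residual degrees of freedom (15.7 after moderation). Tests are two-sided, with Benjamini-Hochberg adjustment over all probe sets tested. The fit was tested on simulated data. Replicates were numbered in series order and pair no arrays. Precision is limited by how many arrays there are.

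The members and gene lists were chosen with earlier results of these data known, so no test over a list was made. Members were picked for naming by the 4 lowest p per comparison and direction, with the stalk, fusion, duplicated and reference genes. From each other list up to 4 past the threshold were picked. Not all members picked are given above in each comparison. Alternatives covered the title term, scaling, offset, filter, variance trend, array weights, single comparisons and each array left out. No sequence or coordinate is given.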

Additional observations from a re-analysis of the deposited data

How the results depend on the processing

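The number of members past the threshold was 0 in every comparison. It stayed 0 under every alternative for conditioned against non-conditioned heads at 24 h, for 24 h against 0 h in conditioned heads and for the interaction, and at 0 h except that it was 1 with those groups compared alone. In non-conditioned heads over time it was 1 under quantile normalization, median centring and the upper 40% of probe sets (RpL7-like in each). It was 2 with array weights (RpL7-like lower, the dimmest probe set of RpL3, with a mean of 17.9, higher). The bright probe set of RpL3 differed by -0.157 in the main fit of that comparison. With single arrays left out the number was 0 to 19. It was 19 without replicate 2 of the non-conditioned 24 h group and 1 without replicate 3 of the conditioned 0 h group. The members' median in that comparison turned from -0.133 to 0.004 under quantile normalization. With single arrays left out, the medians ran from -0.104 to -0.069 (conditioning at 0 h), -0.131 to 0.09 (at 24 h), -0.249 to -0.029 and -0.109 to -0.027 (time, non-conditioned and conditioned) and -0.033 to 0.169 (interaction). Without the 3 yolk-positive arrays, chosen after seeing the data, no member passed and the medians were -0.08, -0.07, -0.133, -0.087 and 0.034. Within the 8 arrays with a # they were -0.08, -0.025, -0.099, -0.057 and 0.054; the other 4, 1 per group, have no spread. No paired analysis was possible because the replicate numbers follow the series' order and pair no arrays.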
